A study of Homo sapiens with 2 samples.

Results

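The AP-1 and EGR immediate early genes described here are 10 genes, FOS, FOSB, FOSL1, FOSL2, JUN, JUNB, JUND, EGR1, IER2 and IER3, chosen by name from the 57485 genes listed for each library. Their RNA was measured in 2 RNA-seq libraries of ARP1-SRD5A1-KD cells. These are cells of the human multiple myeloma (MM) line ARP1 that carry, by lentivirus, a short hairpin RNA against SRD5A1, a steroid 5α-reductase. The hairpin is expressed when doxycycline (Dox) is present. Both libraries carry the hairpin, 1 is labelled untreated and 1 is labelled as treated with Dox, and the comparison asks which RNAs differ when the hairpin is induced. The genotype label of the library with Dox names SRD5A2, while both titles name SRD5A1. The dose and duration of Dox for these libraries are not given in the sources used here, and neither is whether the cells were a clone or a pool. No library of Dox-treated cells without the hairpin was analysed here, so Dox and the hairpin cannot be told apart.

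Immediate early genes are switched on within minutes of a growth factor or a stress, from transcription factors already present in the cell, and their RNAs are usually short-lived. The proteins of the FOS family pair with those of the JUN family through a leucine zipper to form AP-1, a dimer that binds DNA, and JUN proteins can also pair among themselves. EGR1 is a zinc finger transcription factor induced by the same signals. AP-1 factors take part in growth, survival and stress responses, and in plasma cells the zipper factors of this class share their DNA sites with lineage factors.

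Each condition has a single library and no replicate check, so no p-value is given and every direction rests on these 2 libraries and their labels. SRD5A1, the targeted gene, read 13.04 FPKM where the label says no Dox and 25.88 FPKM where it says Dox, a log2 ratio of 0.98 (interval 0.89 to 1.08), the opposite direction to a knockdown at the RNA level. The protein was not measured in these libraries. Conditions are therefore named below by their labels. The libraries held 45918570 and 48728927 expected counts, respectively. Of 10 plasma cell markers, 9 reached 1 FPKM in each library, and CD27, at 0.06 and 0.18 FPKM, did not. Among 12 markers of other cell types the highest value in either library was 1.93 FPKM, for the epithelial gene EPCAM. The most counts were those of the B cell gene PAX5, 447 and 321, at 1.32 and 0.79 FPKM. The red cell gene HBB had 0.43 and 1.39 FPKM, and CD3D had 0 counts in both. The summed FPKM of these 12 markers was 4.86 without Dox and 5.32 with Dox.

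Ratios are given as log2 of the FPKM with Dox over the FPKM without Dox, after adding a pseudocount of 0.1, which understates the change of low genes. FPKM corrects the count of a gene for its effective length and for the depth of the library, CPM corrects it for depth alone, and TPM corrects for both and has the same sum in each library. The 95% intervals are exact binomial (Clopper-Pearson) intervals for ratios and exact Poisson intervals for levels, and both cover counting error only. A difference past 2-fold was looked for in the 14859 genes that reached 1 FPKM somewhere, called the tested genes, and their median log2 ratio was 0.15. Of the 10 members, 9 passed this filter, and FOSL2 did not. Past 2-fold, 1 of the 9 was higher with Dox, beside 17.0% of all tested genes. In the other direction 1 of the 9 was lower, beside 6.41% of all tested genes. The other 7 lay within 2-fold, and the median log2 ratio of the 9 was 0.18. These counts are near the background and are no result about the 10 genes as a set. What the genes show is a spread, with JUN at the higher end, FOSL1 at the lower end and the rest between them.

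**Figure D1:**
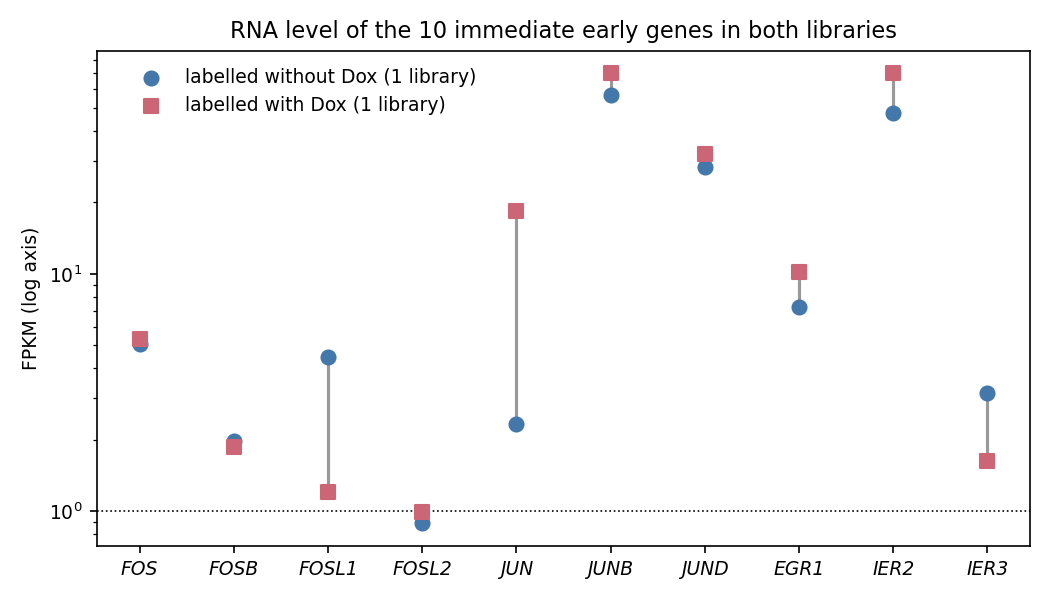
The RNA level (FPKM, log axis) of each of the 10 genes is plotted without Dox (circles) and with Dox (squares), by label, joined by a line, with a dotted line at 1 FPKM. The long lines are those of JUN, from 2.32 up to 18.5 FPKM, and FOSL1, from 4.46 down to 1.2 FPKM, while JUNB, IER2 and JUND are high in both libraries.

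The following stretches are shown because they hold elements of the kinds through which immediate early genes are known to respond to signals. They were taken from the RefSeq windows (GRCh38.p14) of 250 bases before the start site, which cover 8 of the 10 genes, FOSL1 and IER3 being the others. Capitals mark the matched element, and each stretch is 30 bases on the strand of its gene.
JUN, variant AP-1 site, chr1:58784096-58784125, minus strand: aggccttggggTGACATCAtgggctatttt
JUND, cAMP response element, chr19:18281804-18281833, minus strand: ggccgcccccaTGACGTCAacccacaaggc
FOS, core of a cAMP response element, chr14:75278752-75278781, plus strand: tggttgagcccgTGACGtttacactcattc
EGR1, first CArG box, chr5:138465364-138465393, plus strand: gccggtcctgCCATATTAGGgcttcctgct
EGR1, second CArG box, chr5:138465386-138465415, plus strand: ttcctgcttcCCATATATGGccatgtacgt
The element in the JUN window, TGACATCA, lies 67 to 60 bases before the RefSeq start. The GENCODE release 29 transcript of JUN starts 280 bases further upstream, so in that annotation the element is within its single exon. The FOS element lies 64 to 60 bases before the RefSeq start of FOS. The printed FOS stretch runs past the GENCODE start of the gene at 75278774. Both strands of the windows were searched. TGACATCA was found in 1 of the 8 members, JUN, and in 2.37% of 35116 RefSeq windows of this length. The full cAMP response element TGACGTCA was found in JUND only and in 1.65% of all windows. Its core TGACG, which the full element contains, was found in all 8 members and in 21.2% of all windows, without matching for base composition. The AP-1 site TGANTCA was found in none of the 8 windows and in 6.57% of all windows, which says only that these letters are not there. The CArG box, which serum response factor binds, was found in EGR1 only and in 1.16% of all windows. Bases further than 250 before the start were not searched, so elements there, in FOS or any other member, would be missed. What these elements contribute to the values was not tested.

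The JUN family supplies the partner that AP-1 dimers require. JUN, the founding member and the partner most tied to stress kinases, was listed with 351 counts and 2.32 FPKM (interval 2.08 to 2.58) without Dox. With Dox it was listed with 2969 counts and 18.5 FPKM (interval 17.8 to 19.2), a 7.97-fold higher level. Its log2 ratio was 2.94 (interval 2.78 to 3.11), above that of 98.1% of the tested genes, and 280 tested genes had a higher one. Over 9 other settings of pseudocount, filter and scaling the log2 ratio of JUN lay between 2.55 and 3.05, though the filters leave it unchanged. JUN (ENSG00000177606.6) lies on the minus strand of chromosome 1 from 58780788 to 58784327 in GRCh38 and has 1 exon and 1 listed transcript. A shift between transcripts therefore does not enter its FPKM, whose effective length was 3297.03 and 3294.3 bases. LINC01135, a long noncoding RNA of the opposite strand within 1000 bases of JUN, shares no exon base with it and had 0 counts in both libraries.

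JUNB, which binds the same sites as JUN and is highly expressed in many lymphoid tumours, went from 4099 counts and 56.6 FPKM to 5377 counts and 70.09 FPKM. Its log2 ratio of 0.31 (interval 0.25 to 0.37) was 0.16 above the median of all tested genes. JUNB lies on chromosome 19 from 12791496 to 12793315 and overlaps 259 exon bases of HOOK2 on the opposite strand. HOOK2 went from 5.34 to 12.09 FPKM, and whether its reads add to JUNB was not tested, since the sources used here do not say whether counting used strand. JUND, the most constantly expressed member, went from 1665 to 1788 counts and from 28.33 to 32.01 FPKM. Its log2 ratio of 0.18 (interval 0.08 to 0.27) was 0.02 from the median of all tested genes, and it was -0.03 with the TMM scaling factors of edgeR. The mean length of its transcripts went from 1522.92 to 1391.96 bases, so the log2 ratio of JUND in CPM was 0.02. JUND lies on chromosome 19 from 18279760 to 18281622, with 1 exon in its main transcript, like JUN and JUNB, but with 2 listed transcripts. The 3 genes thus differed in their ratios, with the interval of JUN far above those of JUNB and JUND.

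On the TPM scale, the JUN family summed to 95.72 without Dox and 141.5 with Dox. JUN held 2.65% of the family TPM without Dox and 15.3% with Dox. JUNB held the largest share in both libraries, 64.9% and 58.1%, and JUND held 32.5% and 26.5%. JUNB TPM was 24.4 times that of JUN without Dox and 3.79 times with Dox. Of the TPM added to the family in the library labelled with Dox, 41.9% was JUN. JUN went from 2.54 to 21.7 TPM and JUNB from 62.1 to 82.24 TPM, so JUNB added slightly more than JUN. On the TPM scale the median log2 ratio of all tested genes was 0.25. Per length, JUN was the least abundant RNA of its family in both libraries. In shares of CPM, which do not correct for length, JUN held 5.74% and 29.3% and JUND 27.2% and 17.6%, so with Dox their order turns.

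The FOS family supplies the other protein of the classical AP-1 dimer, and its RNAs were low in both libraries. FOS, the prototype immediate early gene, was listed with 247 counts and 5.04 FPKM without Dox and 309 counts and 5.3 FPKM with Dox. Its log2 ratio of 0.07 had an interval of -0.17 to 0.32, which holds 0 and the median of all tested genes. FOS (chromosome 14, 75278774 to 75282230) has 10 listed transcripts, and the mean transcript length in the tables went from 1309.99 to 1442.87 bases, so its log2 ratio in CPM was 0.24. FOSB, whose short splice form accumulates on long stimulation, went from 222 to 280 counts and from 1.98 to 1.86 FPKM. The log2 ratio of FOSB was -0.09 (interval -0.35 to 0.17) in FPKM and 0.25 in CPM. The mean length of its transcripts went from 2679.16 to 3342.91 bases, so its direction depends on the length correction. FOSB (chromosome 19, 45467995 to 45475179) has 13 listed transcripts, and the tables give no value for each of them.

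FOSL1, which encodes Fra-1, a FOS protein without the strong activation domain of FOS, was the member past 2-fold on the lower side. It was listed with 262 counts and 4.46 FPKM (interval 3.94 to 5.03) without Dox and 75 counts and 1.2 FPKM (interval 0.944 to 1.5) with Dox, a 3.72-fold lower level. The log2 ratio of FOSL1 was -1.81 (interval -2.2 to -1.44), and 222 of the tested genes had a lower one. Over 8 other settings it lay between -2.02 and -1.31, with the smallest size at a pseudocount of 1 FPKM. FOSL1 (ENSG00000175592.8) lies on the minus strand of chromosome 11 from 65892049 to 65900573 and has 4 exons. Its neighbour CCDC85B, within 1000 bases on the opposite strand, shares no exon base with it and went from 24.89 to 14.59 FPKM. FOSL2, which encodes Fra-2, was listed with 257 and 290 counts at 0.89 and 0.99 FPKM, below the filter in both libraries. Its log2 ratio was 0.14 (interval -0.11 to 0.39). FOSL2 (chromosome 2, 28392448 to 28417312) has the longest main transcript of the 10 genes, 6708 bases, and counts like those of FOS therefore give a lower FPKM.

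The summed TPM of the FOS family was 13.58 without Dox and 10.96 with Dox. FOSL1 held 36.1% of it without Dox and 12.9% with Dox. FOS held 40.7% and 56.7%, FOSB 16.1% and 19.9%, and FOSL2 7.14% and 10.6%. Since the TPM of FOS was 5.53 and 6.21 and that of FOSB was 2.18 in both, most of the change in shares was in the TPM of FOSL1. In shares of CPM the order differs. Without Dox FOSL1 held 26.5% of the family CPM, FOSL2 26.0% and FOSB 22.5%, with FOS between the last pair. With Dox FOS held 32.4%, FOSL2 30.4%, FOSB 29.4% and FOSL1 7.86%, so the share of FOSL1 was lower with Dox on both scales. The ratio of the JUN family TPM to the FOS family TPM was 7.05 without Dox and 12.9 with Dox. JUN over FOS, each in TPM, went from 0.459 to 3.49. These are RNA ratios, and the proteins and their dimers were not measured in these libraries.

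**Figure D2:**
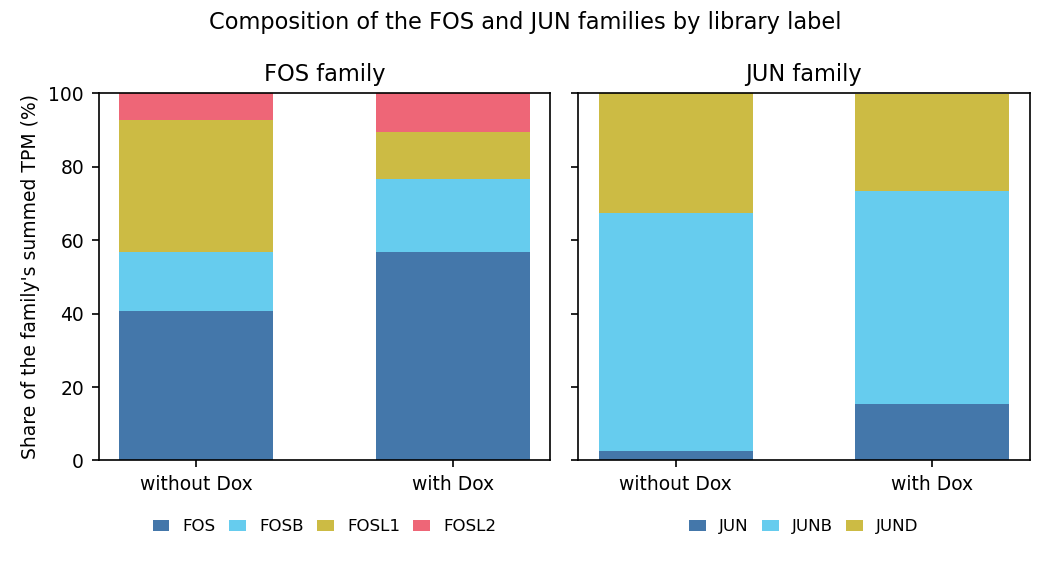
Stacked bars give the share (%) of the summed TPM held by each gene of the FOS family (left) and the JUN family (right) by label, without Dox and with Dox, 1 library each. FOSL1 goes from 36.1% to 12.9% of the FOS family, and JUN from 2.65% to 15.3% of the JUN family, while JUNB keeps the largest share.

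EGR1, a zinc finger factor with a pair of CArG boxes in the window shown above, was listed with 968 counts and 7.28 FPKM (interval 6.83 to 7.75) without Dox. With Dox it had 1431 counts and 10.15 FPKM (interval 9.63 to 10.7). Its log2 ratio was 0.47 (interval 0.36 to 0.59), 0.32 above the median of all tested genes and within 2-fold. EGR1 (chromosome 5, 138465490 to 138469315) has 1 listed transcript, and its log2 ratio lay between 0.26 and 0.57 over 9 other settings. IER2, which encodes a small nuclear protein, went from 4077 counts and 47.87 FPKM to 6701 counts and 70.07 FPKM. The log2 ratio of IER2 was 0.55 (interval 0.49 to 0.61) and stayed between 0.33 and 0.65 over 9 other settings. IER2 (chromosome 19, 13150415 to 13154908) overlaps 946 exon bases of an antisense RNA, AC011446.2, which was listed at 0.2 and 0.94 FPKM. EGR1, IER2 and JUNB were higher with Dox in every setting tried, by less than 2-fold each.

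IER3, a stress-induced regulator of cell survival, was the other member with an interval below 0. It was listed with 147 counts, rounded, and 3.15 FPKM (interval 2.67 to 3.71) without Dox and 80 counts and 1.62 FPKM (interval 1.29 to 2.02) with Dox. Its log2 ratio was -0.92 (interval -1.33 to -0.52), just inside the limit of 2-fold. It was past 2-fold with the TMM factors (-1.12), the size factors (-1.13) and centring on the median of all tested genes (-1.07). IER3 (chromosome 6, 30743199 to 30744554, minus strand) shares 359 exon bases with IER3-AS1 on the opposite strand, and its counts are not whole. IER3-AS1 was listed at 2.87 and 2.14 FPKM. The summed counts of both genes were 184.0 and 109.0, a log2 ratio of -0.84 in CPM.

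**Figure D3:**
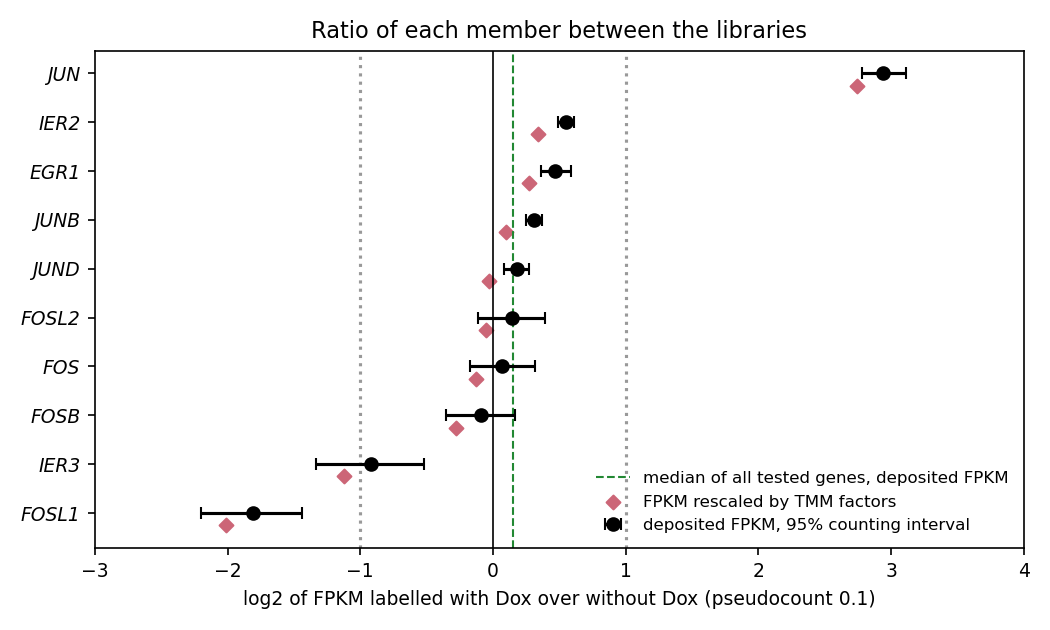
The log2 ratio of each gene (FPKM labelled with Dox over without Dox, pseudocount 0.1) is shown as a circle with its 95% counting interval, and as a diamond after rescaling by the TMM factors. The dashed line is the median of all tested genes at 0.15 and the dotted lines mark 2-fold. JUN at 2.94 and FOSL1 at -1.81 lie outside the dotted lines, and IER3 is inside the lower line as deposited and past it with the TMM factors.

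In the order of FPKM, JUNB, IER2 and JUND led in both libraries, and FOSL2 was the lowest in both. JUNB at 70.09 and IER2 at 70.07 FPKM could not be told apart with Dox, while without Dox their counting intervals, 54.9 to 58.4 and 46.4 to 49.4, did not overlap. JUN was the eighth of the 10 genes without Dox, where its interval overlapped that of FOSB (1.73 to 2.26). With Dox it was the fourth, above EGR1. FOSL1 was the sixth without Dox, with an interval that overlapped that of FOS (4.43 to 5.71), and the ninth with Dox, with intervals that overlapped those of IER3 and FOSL2. All 10 genes together summed to 173.26 TPM without Dox and 248.48 TPM with Dox. Without JUN the sums were 170.72 and 226.78 TPM, and IER2, JUNB, JUND and EGR1 held most of each sum. In TPM the median log2 ratio of all tested genes was 0.25.

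The direction of the small ratios depended on the scaling. The median log2 ratio of all tested genes shifted by -0.2 with the TMM factors and by -0.22 with the size factors of DESeq2. The share of higher genes among those past 2-fold was 72.6% with the deposited FPKM, 56.0% with the TMM factors and 55.2% with the size factors. Centring on the median of all tested genes gave 60.4%. FOS, FOSL2 and JUND changed sign among the settings, and so did FOSB.

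The genes share a low number of exons, a trait that the choice of members did not use. All 10 have at most 4 exons in their main transcript, as do 19.2% of 11023 tested protein-coding genes. JUN, JUNB and JUND have a single exon, as do 2.16% of those genes. The median span of the 10 genes was 3683 bases, beside 32649 bases for the tested protein-coding genes. FOSL2, however, spans 24865 bases. The median 3′ UTR length was 928 bases in the members and 919 bases in the tested protein-coding genes. Of the 10, JUNB, JUND, IER2 and FOSB lie on chromosome 19. The share of all tested genes on that chromosome was not counted, so this is no result about the members. The pentamer ATTTA, part of the AU-rich elements that shorten the life of an RNA, is in the 3′ UTR of 9 of the 10 genes and of 65.8% of the tested protein-coding genes. The longer element TTATTTATT is in FOS and FOSL2 and in 7.75% of those genes. JUN has 3 copies of ATTTA, FOSL1 has 1 and IER3 has 6, and the part of these elements in the ratios was not tested. Of the genes for ZFP36 proteins, which bind AU-rich elements and speed decay, ZFP36 went from 76.9 to 44.69 FPKM (log2 ratio -0.78). ZFP36L1 went from 60.56 to 66.85 FPKM (0.14) and ZFP36L2 from 32.34 to 38.45 FPKM (0.25), all within 2-fold.

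Lists of related genes were examined beside the members, and each is described by its counts past 2-fold. Among all tested genes 17.0% were higher and 6.41% lower. The lists were chosen with earlier results of these data known, so these counts are a description and no test of a list. Of 13 other basic leucine zipper genes that pair with FOS or JUN proteins or bind AP-1 sites, 11 were tested, and 3 were higher and 2 lower with Dox. The median log2 ratio was 0.48. ATF3, a stress-induced partner of JUN, went from 3.94 to 99.71 FPKM, with 253 and 5331 counts (log2 ratio 4.63). JDP2, which also pairs with JUN and represses AP-1 sites, went from 1.73 to 21.91 FPKM (log2 ratio 3.59, interval 3.32 to 3.87). BATF3, a zipper factor of lymphoid and dendritic cells that needs a JUN partner, went from 7.47 to 17.03 FPKM. The ratio of BATF3, 1.18 in log2, had an interval of 0.97 to 1.39. BATF, its relative, went the other way, from 19.41 to 7.27 FPKM (log2 ratio -1.4, interval -1.62 to -1.2). The small MAF gene MAFK went from 12.25 to 5.18 FPKM, and ATF7 from 13.46 to 20.16 FPKM, within 2-fold. ATF2, another partner of JUN, went from 25.12 to 32.74 FPKM (log2 ratio 0.38), so genes that pair with JUN lay on both sides and within 2-fold. With the TMM factors the median of the list was 0.27, and 2 genes, without BATF3, were higher past 2-fold. With the size factors the count of higher genes was also 2.

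The other EGR genes were scarce. EGR2, EGR3 and EGR4 stayed below 1 FPKM in both libraries, with at most 77 counts. EGR4, below the filter, went from 77 to 21 counts (log2 ratio -1.57, interval -2.34 to -0.86). The co-repressors of EGR proteins, NAB1 and NAB2, went from 12.97 to 21.88 FPKM and from 8.33 to 6.33 FPKM, log2 ratios of 0.75 and -0.39, and neither passed 2-fold. Of the 6 genes on this list, these 2 were tested, with a median log2 ratio of 0.18, which was -0.03 with the TMM factors. With no filter the list median was -0.37 and 1 gene was lower past 2-fold.

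Of 38 other immediate early or fast-induced genes, 26 were tested, and 0 were higher and 5 were lower past 2-fold. The median log2 ratio was 0.06, below the 0.15 of all tested genes. ID1, an inhibitor of basic helix-loop-helix factors, went from 7.19 to 0.58 FPKM, with 267 and 23 counts (log2 ratio -3.42, interval -4.1 to -2.81). PLK3, a stress-responsive polo-like kinase, went from 8.2 to 3.46 FPKM (log2 ratio -1.22). The other 3 past 2-fold, named after their values were seen, were SNAI1 (log2 ratio -2.6), IER5L (-1.58) and PLK2 (-1.33). The count of lower genes was 3 with a pseudocount of 1 FPKM, 2 with a minimum of 5 FPKM, 6 with the TMM factors and 7 with the size factors. The next values are for the minimum of 5 FPKM and the TMM factors. The list median was 0.2 with the minimum of 5 FPKM and -0.15 with the TMM factors. RHOB, a small GTPase induced by stress, went from 33.43 to 18.98 FPKM, and the antiproliferative gene BTG2 from 32.56 to 56.61 FPKM, both within 2-fold. KLF6, a zinc finger factor, went from 30.3 to 49.63 FPKM, also within 2-fold. None of these 26 genes thus shared the higher side past 2-fold with JUN, and KLF4 and HES1 had 0 counts in both libraries.

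Among 15 factors that act on the promoters of FOS and EGR1 (SRF, the ternary complex factors, the MRTF co-activators, and CREB factors with their co-activators), all were tested, 1 was higher and 0 were lower past 2-fold. The higher one was CREM, a CREB relative, at the limit, from 42.57 to 85.4 FPKM (log2 ratio 1.0, interval 0.91 to 1.09). It was within 2-fold in 5 of the 9 other settings, namely a pseudocount of 1 FPKM, CPM, the TMM factors, the size factors and centring. CREB1 went from 20.65 to 32.97 FPKM (log2 ratio 0.67) and ATF1 from 37.13 to 55.15 FPKM (0.57). The SRF partners ELK4 and MRTFB, the latter listed as MKL2, had log2 ratios of 0.57 and 0.64, and CRTC1 had -0.46. The median of the list was 0.28, and 0.08 with the TMM factors.

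Of 19 kinases upstream of AP-1, 2 were higher and 0 were lower past 2-fold, with a median log2 ratio of 0.29. RPS6KA2, a ribosomal S6 kinase, went from 0.74 to 8.74 FPKM, with 90 and 1567 counts (log2 ratio 3.4, interval 3.09 to 3.72). MAPK10, the JNK of the nervous system, was the other, from 1.98 to 4.77 FPKM, named after its value was seen. MAP3K1, which acts above JNK, went from 4.47 to 7.96 FPKM (log2 ratio 0.82). The p38 gene MAPK12 went from 32.8 to 16.84 FPKM (-0.96), and RPS6KA4 and RPS6KA1 had log2 ratios of -0.81 and -0.76. The count of higher kinases was 1, without MAPK10, at a pseudocount of 1 FPKM and at a minimum of 5 FPKM. With the TMM factors 2 of these kinases were past 2-fold on the lower side and the median was 0.08. RNA levels do not measure kinase activity.

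Of 25 genes that textbooks name as targets of AP-1 or EGR1, 12 were tested, 1 was higher and 4 were lower past 2-fold, and the median log2 ratio was -0.75. TGFB1, the growth-inhibiting cytokine, went from 89.94 to 29.68 FPKM (log2 ratio -1.6, interval -1.65 to -1.54). LMNA, which encodes lamins of the nuclear envelope, went from 108.77 to 38.13 FPKM (-1.51). PLAUR, the urokinase receptor, went from 6.16 to 2.79 FPKM (-1.12), and the gap junction gene GJA1 from 31.15 to 14.98 FPKM (-1.05). EZR, a linker of membrane and actin, and HMOX1, the heme oxygenase, had log2 ratios of -0.96 and -0.91. The higher gene was IL6, a growth factor of myeloma cells, named after its value was seen, from 25 to 85 counts and 0.92 to 3.43 FPKM, and it was left out at a minimum of 5 FPKM. The list median was -0.25 with no filter and -0.96 with the TMM factors. The count of lower genes was 3 at a pseudocount of 1 FPKM and 6 with the TMM factors. MMP1, MMP3 and MMP10, the metalloproteinases often used as readouts of AP-1, had 0 counts in both libraries. A count of 0 allows up to 3 counts, 0.0653 CPM without Dox and 0.0616 CPM with Dox.

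**Figure D4:**
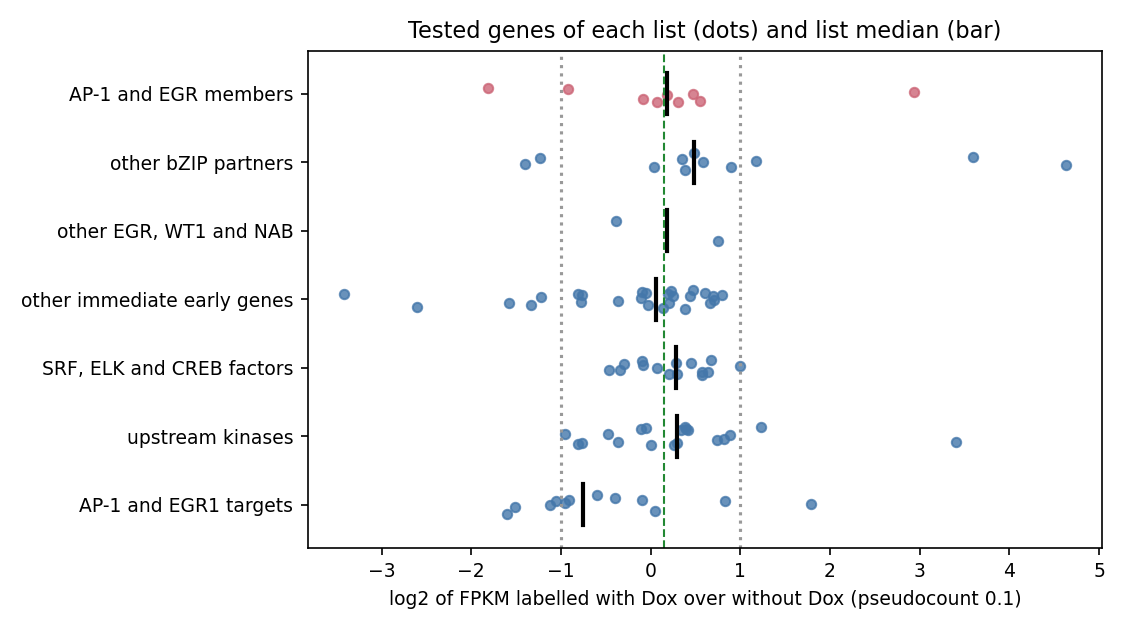
Each dot is a tested gene, placed by its log2 ratio (FPKM labelled with Dox over without Dox, pseudocount 0.1), for the 10 members (red, 9 tested) and 6 lists of related genes (blue), with small vertical offsets for legibility. Bars are list medians, the dashed line is the median of all tested genes at 0.15, and dotted lines mark 2-fold. JUN, ATF3, JDP2 and RPS6KA2 lie far to the right, ID1 far to the left, and the bar of the AP-1 and EGR1 targets stands at -0.75.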

How the data were processed

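Poly(A) RNA of ARP1 cells was sequenced in 2 libraries, 1 per condition. The authors deposited expected counts per gene, which are estimates and need not be whole. The authors deposited TPM, scaled by effective length to a fixed sum, and the authors deposited FPKM, divided by effective length and library total. The submitters' processing notes name Bowtie 0.12.2, HISAT2 2.1.0, StringTie 1.3.4d and hg19. The roles of these tools are not given in the sources used here. Of 204675 listed transcripts, 202888 are in GENCODE release 29 under the same version and 840 were assembled by the authors. Coordinates are from that release (GRCh38), and the tables hold none.

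A pseudocount of 0.1 was added to each FPKM before the log2 ratio, and 14859 genes passed a minimum of 1 FPKM in either library. Depth was 45918570 and 48728927 counts. TMM factors came from edgeR 4.0.16 and size factors from DESeq2 1.42.0 (R 4.3.3), on counts rounded to whole numbers with at least 10 over both libraries, and the rest from Python 3.11.15 with pandas 2.3.3, numpy 2.4.6, scipy 1.17.1 and matplotlib 3.10.9. The edgeR test that the study's methods name was not run, since 1 library per condition gives no dispersion. The ratio and interval steps were run on simulated Poisson counts with the same effective length in both libraries. Since the intervals assume such counts, this checks the code only. It covers neither variation between replicates nor a change of length between libraries. Members and lists were chosen with earlier results of these data known. Genes named are the 10 members, SRD5A1, and up to 6 genes per related list with the largest absolute ratio among those whose larger FPKM was at least 5, and other named genes are list members given for a count or as background. Some genes of the lists are not reported here by name.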

Additional observations from a re-analysis of the deposited data

How the results depend on the processing

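JUN stayed past 2-fold on the higher side in all 9 alternatives and FOSL1 on the lower side in the 8 that kept it. These alternatives are not independent checks. The filters leave the ratio of a gene as it is, and TPM, the scaling factors and centring shift all genes about equally. The count of members past 2-fold on the lower side was 2, FOSL1 and IER3, with the TMM factors, with the DESeq2 size factors and with centring on the median. It was 0 with at least 5 FPKM in a library, a filter that leaves out both. Over all genes, a pseudocount of 1 FPKM gave 1606 higher genes. No filter on low values gave 4735 higher and 1897 lower genes, and at least 5 FPKM gave 1256 higher and 603 lower genes. The TMM factors gave 1527 lower genes and the DESeq2 size factors 1562, beside 953 with the deposited FPKM. No paired analysis was possible because the conditions have a single library each, and leaving one out was not possible either. Depth limits IER3 and FOSL1, with 80 and 75 counts in the library labelled with Dox. The cause of the different counts with other scaling factors was not tested.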
